A study of Homo sapiens with 36 samples.

Results

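The regions described here are the PHF19 binding regions of DU145 cells that lay at a promoter and also carried EZH2. They were selected on measured binding: a region of the authors' table of PHF19 against input was taken where it reached within 2500 bp of the start of a protein-coding transcript and overlapped an EZH2 region with a peak in each of the 2 replicates. This chose 363 of the 1245 PHF19 regions. A further 450 PHF19 regions lay at a promoter without such an EZH2 region, and 432 lay away from promoters. DU145 is a prostate cancer cell line. Cells carried either a control short hairpin RNA (shCTR) or a hairpin against the long isoform of PHF19 (shPHF19L#4), and all groups share the hairpin delivery. ChIP-seq, which sequences the DNA that an antibody pulls down with its protein, gave 2 replicates of PHF19 in control cells, and in control and knockdown cells 2 each of MTF2, H3K27me3, EZH2 and SUZ12, of which EZH2 and SUZ12 in knockdown cells enter only through the authors' means. Per the study's methods, chromatin of fly cells was added as a spike-in to the EZH2, SUZ12, H3K27me3 and MTF2 precipitations. How deeply each library was sequenced is unknown, since the peak lists give no totals of reads. The labels do not state whether replicates were separate cultures, and the study calls them independent biological replicates.

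Polycomb repressive complex PRC2 places methyl groups on lysine 27 of histone H3 through its catalytic subunit EZH2, and SUZ12 is a core subunit that holds the complex together. PHF19 and MTF2 are Polycomb-like proteins, accessory subunits that bind PRC2 and contain a winged-helix domain that contacts unmethylated CpG-rich DNA and a Tudor domain that binds methylated histone H3. The resulting mark, H3K27me3, is read by chromodomain proteins of the CBX family in PRC1, and genes of developmental regulators kept silent in a differentiated cell are its best known targets.

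Because the proteins of this family contact CpG-rich DNA, the sequence of a few regions is shown before their values. For each region the window of 300 bases outside annotated protein-coding exons with the most CG dinucleotides was taken from the GRCh37 genome, and it is printed 5′ to 3′ on the strand of the gene, with each CG in capitals. CBX8 and PAX5 are shown because they had the highest PHF19 concentrations among regions in which such a window held at least 75% of the CG count of the densest window of the region. EMX1 is shown by the same condition for the highest SUZ12 score of replicate 1, VGLL2 for the lowest CpG density of the 363 regions, and PAX9, by the same condition, for the highest PHF19 concentration among promoter regions without EZH2. The CBX8 window (chr17:77783810-77784109, minus strand) lay outside genes, with its middle at -8628 bp from the start of the gene, where a minus sign means upstream. The PAX5 window (chr9:37036469-37036768, minus strand) also lay outside genes, at -2354 bp. The windows of EMX1 (chr2:73147555-73147854, plus strand), VGLL2 (chr6:117587337-117587636, plus strand) and PAX9 (chr14:37127803-37128102, plus strand) lay in introns, at 3057, 766 and 1077 bp.
CBX8: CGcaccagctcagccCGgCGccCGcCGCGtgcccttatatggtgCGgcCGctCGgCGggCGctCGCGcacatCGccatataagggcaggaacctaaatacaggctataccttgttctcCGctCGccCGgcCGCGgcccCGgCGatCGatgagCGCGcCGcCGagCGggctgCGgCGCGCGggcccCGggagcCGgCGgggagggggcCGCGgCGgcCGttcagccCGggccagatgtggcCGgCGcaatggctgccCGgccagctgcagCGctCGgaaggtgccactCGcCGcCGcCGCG
PAX5: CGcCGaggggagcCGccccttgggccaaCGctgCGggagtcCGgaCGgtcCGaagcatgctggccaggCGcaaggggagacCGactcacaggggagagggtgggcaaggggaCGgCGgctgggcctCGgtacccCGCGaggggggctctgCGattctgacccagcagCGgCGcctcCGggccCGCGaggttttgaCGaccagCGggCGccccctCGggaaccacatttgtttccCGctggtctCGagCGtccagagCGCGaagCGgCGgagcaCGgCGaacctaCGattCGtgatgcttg
EMX1: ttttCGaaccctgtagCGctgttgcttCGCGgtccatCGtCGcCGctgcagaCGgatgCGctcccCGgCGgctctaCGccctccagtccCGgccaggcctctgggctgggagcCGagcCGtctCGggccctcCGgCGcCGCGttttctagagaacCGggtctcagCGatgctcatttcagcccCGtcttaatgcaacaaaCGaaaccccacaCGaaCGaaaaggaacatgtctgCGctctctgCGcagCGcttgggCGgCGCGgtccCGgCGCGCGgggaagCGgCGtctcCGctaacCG
VGLL2: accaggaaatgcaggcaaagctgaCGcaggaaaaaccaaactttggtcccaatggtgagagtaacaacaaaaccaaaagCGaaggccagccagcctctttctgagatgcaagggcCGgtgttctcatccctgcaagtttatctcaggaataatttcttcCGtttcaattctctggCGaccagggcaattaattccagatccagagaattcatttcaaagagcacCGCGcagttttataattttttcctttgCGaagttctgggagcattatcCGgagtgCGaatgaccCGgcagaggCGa
PAX9: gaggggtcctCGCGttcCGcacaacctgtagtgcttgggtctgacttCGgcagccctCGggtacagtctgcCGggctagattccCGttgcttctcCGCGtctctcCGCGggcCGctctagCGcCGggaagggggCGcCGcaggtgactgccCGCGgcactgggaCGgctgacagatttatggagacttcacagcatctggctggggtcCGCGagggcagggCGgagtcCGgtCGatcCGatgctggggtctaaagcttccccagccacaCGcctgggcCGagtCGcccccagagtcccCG
The windows hold 49, 36, 40, 12 and 29 CG, in the order printed. All but that of VGLL2 hold CG along most of their length, although stretches without CG occur, as in CBX8 and PAX9. PAX9 is a developmental factor gene without an EZH2 region of both replicates. The VGLL2 window has few CG, most of them near its 3′ end.

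The values that chose the regions are given as a description. The EZH2 lists of shCTR held 2060 and 1236 peaks, and merging them gave 500 EZH2 regions with a peak from each replicate, of which 363 overlapped a chosen region. The authors' mean log2 concentration of PHF19 reads at the chosen regions ran from 5.23 to 10.95 with a median of 7.20, against a median of 6.28 at promoter regions without EZH2. It followed the width of the region, with a Spearman's rho of 0.89 over the 363 regions, so a high concentration mostly marks a wide region. Near the thresholds the choice separated similar regions. The region farthest from a start was at OLIG3, which encodes a neural bHLH factor, 2329 bp away, and a region with EZH2 near SOX2 lay just outside the window at 2506 bp. The shortest overlap with EZH2 was 878 bp, at NOTO, a homeobox gene of the notochord, and a promoter region at PHF21B lay 20 bp from an EZH2 region. The lowest EZH2 scores inside were 50.4 in replicate 1, at DGKG, and 51.1 in replicate 2, at LGR6. A replicate 1 EZH2 peak itself overlapped 359 of the 363 regions. The others, such as NOTO, overlapped the merged EZH2 region through a replicate 2 peak alone. Of the promoter regions left out, 57 had an EZH2 peak in replicate 1 alone, with a highest score of 300 at COL4A2, and 186 had a peak in replicate 2 alone, with a highest score of 886 at AMN. Regions without EZH2 in both replicates were therefore not free of EZH2 peaks.

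The 363 regions had a median width of 3268 bp, from 982 to 16001 bp, against 2131 bp for promoter regions without EZH2. A transcript start lay inside 324 of them (89.3%), and the middle of 268 (73.8%) lay within 1000 bp of the nearest start. The middle fell in an intron in 190 regions, outside genes in 86, in an untranslated exon in 59 and in a coding exon in 28. The starts of 359 protein-coding genes lay within the window of a chosen region, 1.81% of the 19794 gene symbols of the annotation, and 20 of these genes also had a promoter region without EZH2. Every autosome held at least 5 of the regions and the X chromosome 3. Within 50000 bp of each other lay 34 regions in 19 pairs, and in 15 pairs the regions had the same nearest gene, so these are not separate loci. They included 3 regions at IGF2, which encodes a fetal growth factor, and pairs at IGF2BP3, PAX5, MECOM and LHX2.

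The highest PHF19 concentrations were found at genes of several kinds. The first was CBX8 (10.95), which encodes a chromodomain subunit of PRC1, at chr17:77771255-77787255. It was followed by TCHH (10.81), which encodes a structural protein of the hair follicle, and FOXB1 (10.76), which encodes a forkhead factor of the developing brain. PAX5 (10.68), which encodes the B cell factor, and IGF2BP3 (10.44), which encodes an oncofetal RNA-binding protein, were also among the 10 highest. So were FOXC1 (10.36), EMX1 (10.25), ATF3 (10.08) and PAX2 (10.08), 3 factors of organ development and, in ATF3, a factor induced by stress. In control cells EZH2 scores at these 10 regions ran from 202 at PAX2 to 1285 at EMX1 in replicate 1. They ran from 466 at TCHH to 3001 at IGF2BP3 in replicate 2. The medians of the group were 134 over the 359 regions with a score in replicate 1 and 336 over all 363 in replicate 2. All 10 were above the median of the group in both replicates.

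Polycomb genes themselves were among the regions. Of 33 Polycomb complex genes, 3 had a chosen region, among them CBX2 and CBX8, which encode chromodomain subunits that read H3K27me3. Beside the 1.81% of all genes this is a count of few genes, and 2 of the 33 had a promoter region without EZH2. The regions of CBX2 and CBX8 were 18152 bp apart, so they count as 1 locus. In shCTR the H3K27me3 scores of CBX8 were 3157 and 3100 in replicates 1 and 2, and in shPHF19L#4 they were 768 and 3100. At CBX2 they were 1040 and 973, then 398 and 3100. In both genes the score was lower with the hairpin in replicate 1. In replicate 2 it was higher at CBX2, whereas at CBX8 both scores were 3100, a value that 3 of the 363 regions reached in shCTR and 248 in shPHF19L#4. CBX2 had no MTF2 peak in replicate 1 of shPHF19L#4, although a peak 2671 bp wide was called in replicate 1 of shCTR, whereas CBX8 had MTF2 peaks in all 4 lists. SUZ12 peaks of both replicates were present at CBX8 (scores 178 and 490) and absent at CBX2.

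Genes of several transcription factor families were among the regions. Of 132 homeobox genes outside the HOX clusters, 33 had a chosen region and 29 a promoter region without EZH2. The homeobox genes with the highest PHF19 concentrations were EMX1, PAX2, LHX2 and IRX5, regulators of forebrain, kidney, eye and heart development. None of the 39 HOX cluster genes had a chosen region, whereas 4 (HOXB8, HOXD11, HOXD12 and HOXD13) had a PHF19 region without EZH2 in both replicates. Of 43 forkhead genes 8 had a chosen region, with a median PHF19 concentration of 9.17 on the log2 scale against 7.20 over all 363 regions. FOXB1, FOXC1, FOXB2 and FOXL2 led them. The regions of these genes were wide, from 8325 to 13263 bp against a median of 3268 bp, and the concentration follows width. Of 20 SOX genes, 5 had a chosen region, among them SOX2, which maintains stem and neural progenitor cells, and SOX5, SOX7, SOX18 and SOX21. GATA3, GATA4 and GATA5, 3 of the 6 GATA genes, had one, and GATA3, a factor of luminal epithelium and T cells, had the highest PHF19 concentration of them (9.25). Among genes of tissue-restricted bHLH factors 6 of 44 had one (NEUROD2, OLIG1, HAND1, NEUROG2, NEUROG3 and OLIG3), and among developmental zinc finger genes 10 of 42, led by GFI1, SP8, PRDM6 and PRDM12. No gene of the 17 T-box factors had one. These are counts beside the 1.81% of all genes, and 2.35% of all genes had a promoter region without EZH2. Such regions were found at similar shares of the homeobox and zinc finger lists. They were found at fewer genes of the SOX (1), GATA (1), forkhead (5) and bHLH (4) lists, and at 2 T-box genes.

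**Figure D1:**
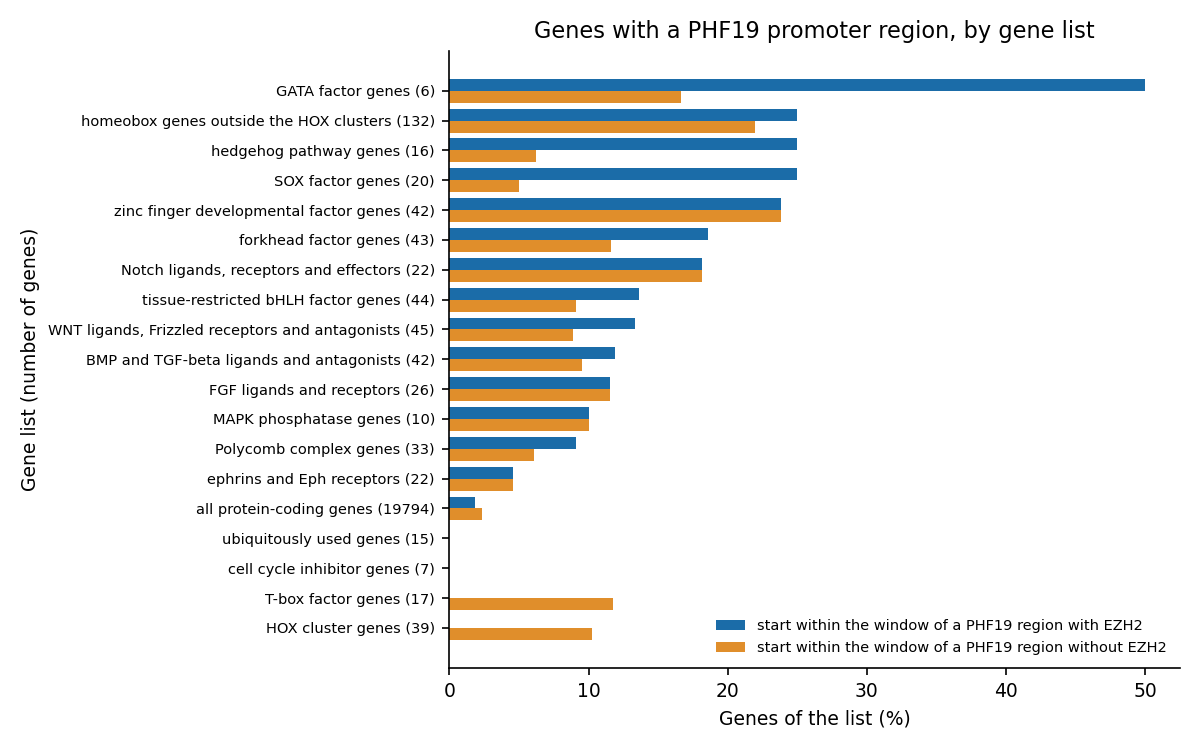
Percent of the genes of each list whose start lay within 2500 bp of a PHF19 region with EZH2 (blue) or without EZH2 (orange), with the number of genes in parentheses. GATA, homeobox, hedgehog and SOX genes have the longest blue bars, and HOX and T-box genes have orange bars alone.

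Genes of signalling pathways were also among the regions. All 3 hedgehog ligands of the 16 hedgehog pathway genes, SHH, IHH and DHH, had a chosen region, as did GLI3, a transcription factor of the pathway. Their PHF19 concentrations were 8.51, 6.62, 5.96 and 7.33. For the WNT list, 6 of 45 genes had one, and all 6 encode secreted proteins: the ligands WNT1, WNT3A, WNT6 and WNT7A and the R-spondins RSPO1 and RSPO3. Of 42 BMP and TGF-beta genes 5 had one, namely the ligands BMP4, BMP6, GDF7 and INHBB and the BMP antagonist CHRD. Notch genes were DLL1, a ligand, and the effectors HES3, HEY1 and HEY2 (4 of 22). FGF genes were FGF8 and FGF9, ligands, and FGFR3, a receptor (3 of 26), and the ephrin list held EFNA3 alone (1 of 22). MAPK phosphatases held DUSP4 alone (1 of 10). Against 1.81% of all genes these are counts of few genes, and promoter regions without EZH2 were found at as many genes of the Notch, FGF, ephrin and MAPK phosphatase lists, at 4 genes each of the WNT and BMP lists and at 1 of the hedgehog list. Of the 7 cell cycle inhibitor genes and of the 15 ubiquitously used genes none had a chosen region or a promoter region without EZH2.

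SUZ12 was called at few of the regions. Replicate 1 gave a SUZ12 peak at 59 of the 363 regions (16.3%), where 8.51% of all 1245 PHF19 regions had one, and replicate 2 gave a peak at 130 (35.8%, against 14.4%). A SUZ12 region with peaks of both replicates was found at 44 (12.1%), against 4.9% of all PHF19 regions and none of the 450 promoter regions without EZH2. The list of replicate 1 was the longer, with 1523 peaks against 232 in replicate 2, yet it marked fewer of the chosen regions. When the 363 regions were ordered by PHF19 concentration, SUZ12 of both replicates was found at 33.0% of the 91 highest, 12.1% of the next 91, 3.30% of the 91 after them and none of the 90 lowest. The 44 regions with SUZ12 also had higher EZH2 scores, with medians of 493 and 1182 in replicates 1 and 2. The 218 regions with no SUZ12 peak in either list had medians of 98.8, over the 214 with a score in replicate 1, and 216. SUZ12 of both replicates was thus found mostly at wide regions with high EZH2 scores. The presence of EZH2 peaks, though neither their score nor the width of a region, was part of the selection. The regions with SUZ12 in a single replicate had a median width of 3465 bp, close to that of all 363.

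The highest SUZ12 scores of replicate 1 were at EMX1 and FOXI3. At EMX1, a homeobox gene of the dorsal forebrain, the scores were 331 and 427 in replicates 1 and 2. At FOXI3, which encodes a forkhead factor of ectodermal appendages, they were 287 and 77.8. The order of these genes therefore differed between the replicates: FOXI3 had the lowest of the 5 in replicate 2. At FLRT2, which encodes an adhesion and guidance receptor, the scores were 266 and 209. At NTNG2, which encodes a netrin of the G class, they were 260 and 374, and at INHBB, which encodes the activin subunit beta B, 213 and 173. All 5 of these genes carried H3K27me3 peaks in both shCTR replicates.

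H3K27me3 covered nearly all of the regions. In shCTR, 350 of the 363 regions (96.4%) had an H3K27me3 peak in replicate 1 and all 363 in replicate 2, against 87.9% and 87.3% of all PHF19 regions. In shPHF19L#4 the numbers were 334 (92.0%) and 363, against 80.4% and 93.6%. A region with peaks of both replicates was found at 350 in shCTR (84% of all PHF19 regions) and at 345 in shPHF19L#4 (82.7% of all). Of the PHF19 promoter regions without EZH2, 79.6% had such a region in shCTR. The mean number of regions with a peak was 356.5 in shCTR and 348.5 in shPHF19L#4, a difference of -8 (n = 2 per group, two-sided exact permutation test over samples, p = 1). With 2 samples against 2 this test cannot go below 0.333, and its p measures the spread between these samples alone. The groups overlapped, and the difference came from replicate 1 alone, since replicate 2 had all 363 regions in both conditions. When regions were both chosen and counted from replicate 2 only, which takes 551 regions, the difference was 4, in the other direction, and from replicate 1 only, which takes 418, it was -18.

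**Figure D2:**
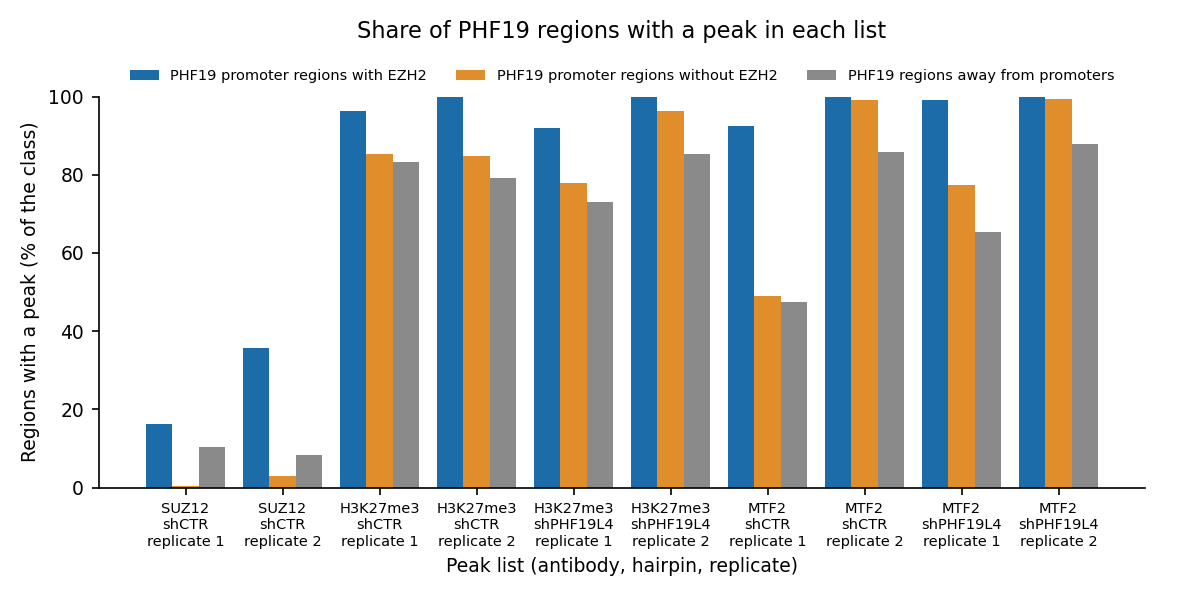
Percent of PHF19 promoter regions with EZH2 (blue), promoter regions without EZH2 (orange) and regions away from promoters (grey) that overlap a peak, for each SUZ12, H3K27me3 and MTF2 list. The blue bars are above 90% in every H3K27me3 and MTF2 list, and the orange bar falls to 49.1% in MTF2 shCTR replicate 1.

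The regions that lost or gained a call in replicate 1 were named after their values were seen. An H3K27me3 peak was present in shCTR alone at 20 regions, against 115 of all 1245 PHF19 regions. They included genes of transcription factors, such as NEUROD2 and SOX2, and of other proteins, such as NTNG2 and the neuronal pentraxin NPTX1. It was present in shPHF19L#4 alone at 4 (22 of all), which were PRKD3, GLI3, PGBD5 and TCTE1, and in neither at 9 (129 of all). The 9 included TCHH, both regions of PAX5 and 1 of the regions of LHX2. At the stronger PAX5 region the scores in replicate 2 were 1697 in shCTR and 3052 in shPHF19L#4, and at TCHH they were 673 and 3100. These regions of PAX5 and TCHH were therefore called in both conditions of replicate 2 and in neither of replicate 1. At SOX2 the scores were 182 and 1166 in shCTR. In shPHF19L#4 there was no peak in replicate 1 and a score of 626 in replicate 2. The peak of replicate 2 was wider with the hairpin, 41531 bp against 17193 bp in shCTR, so its score and width went in opposite directions.

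The peak scores of H3K27me3, which are not scaled to the spike-in, moved in opposite directions in the 2 replicates. In replicate 1 the median over the 330 regions with a peak in both conditions was 792 in shCTR and 570 in shPHF19L#4, and 240 regions were lower with the hairpin. In replicate 2 the median over 363 regions was 820 in shCTR and 3100 in shPHF19L#4, and 356 were higher. Over all PHF19 regions with both scores, 637 of 979 were lower in replicate 1 and 1062 of 1083 higher in replicate 2. At promoter regions without EZH2 the numbers were 185 of 340 and 380 of 382. The value of 3100 was reached or passed at 248 of the chosen regions in shPHF19L#4 replicate 2. Of these, 238 had exactly this value, so differences among them cannot be seen. Peak widths did not follow the scores of replicate 1, where the median went from 7033 to 7339 bp with 188 of 330 wider. The median went from 4177 to 9380 bp in replicate 2, with 359 of 363 wider. Over all PHF19 regions 536 of 979 and 1067 of 1083 were wider. The whole lists moved as the scores did: replicate 1 held 39254 peaks over 108 Mb in shCTR and 35128 over 96.9 Mb in shPHF19L#4, and replicate 2 held 15994 over 30.4 Mb and 57026 over 159 Mb. Scores and peak numbers depend on the depth of a library, whose part in the difference was not tested. The lists carry no spike-in scaling. Of the 57 regions named by a rule, without those named after their values were seen, 50 had both scores in replicate 1. With the hairpin 38 of the 50 were lower in replicate 1, and 54 of 57 were higher in replicate 2.

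MTF2 was called at nearly all of the regions as well. In shCTR 336 of the 363 regions (92.6%) had an MTF2 peak in replicate 1 and 363 in replicate 2, against 61.2% and 94.8% of all PHF19 regions. In shPHF19L#4 there were 360 (99.2%) and 363, against 79.5% and 95.6%. A region with peaks of both replicates was found at 339 (93.4%) in shCTR, where 62.3% of all PHF19 regions had one, and at 361 (99.4%) in shPHF19L#4, where 80.7% had one. Of the 450 promoter regions without EZH2, 225 had such a region in shCTR and 351 in shPHF19L#4. The mean number of the 363 regions with a peak was 349.5 in shCTR and 361.5 in shPHF19L#4, a difference of 12 (n = 2 per group, two-sided exact permutation test over samples, p = 1, with 0.333 the smallest it can give). The groups overlapped, since replicate 2 had a peak at every region in both conditions and the difference of 24 lay in replicate 1. Chosen and counted from replicate 2 only, the difference was 0, and from replicate 1 only, 33. The list of replicate 2 held 32254 peaks in shCTR against 2516 in replicate 1, so a peak there says less about a region.

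In replicate 1, 26 regions had an MTF2 peak in shPHF19L#4 alone, against 245 of all 1245 PHF19 regions and 132 of the 450 promoter regions without EZH2. Only a region without a shCTR peak can gain one. Of the chosen regions 1 had a peak in neither condition, against 238 of all and 97 of the 450. Nearly all chosen regions that could gain a peak therefore did. A peak in shCTR alone was found at 2 (17 of all), CBX2 and 1 region of LHX2. These genes were named after their values were seen. The whole MTF2 lists also grew with the hairpin, from 2516 to 4216 peaks and 5.98 to 11.0 Mb in replicate 1 and from 32254 to 34623 peaks and 46.6 to 59.0 Mb in replicate 2, and the part of this in the gained and wider peaks was not tested. The 26 were led in PHF19 concentration by MLLT6, INSM2 and FOXP2, and they included FOXF1, LHX4 and the weaker region of PAX5. The chosen region with a peak in neither was at FBLN5, which encodes an elastic fibre protein. The MTF2 peaks were also wider with the hairpin. In replicate 1 the median width over 334 regions with a peak in both was 3762 bp in shCTR and 4529 bp in shPHF19L#4, and 292 were wider. In replicate 2 it was 4602 and 5949 bp over 363 regions, and 345 were wider. The direction was the same in both replicates, and promoter regions without EZH2 had it too, with 188 of 216 wider in replicate 1 and 389 of 445 in replicate 2. At SHH, which encodes the hedgehog ligand of limb and neural tube, the MTF2 peak was 5789 and 7103 bp wide in shCTR and 7622 and 11729 bp in shPHF19L#4. At IGF2BP3 it was 5209 and 5332 bp wide in shCTR and 5292 and 5449 bp in shPHF19L#4. In each replicate the peak of both genes was wider with the hairpin, by little at IGF2BP3. The widths at SHH did not overlap between the conditions, and those at IGF2BP3 did.

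**Figure D3:**
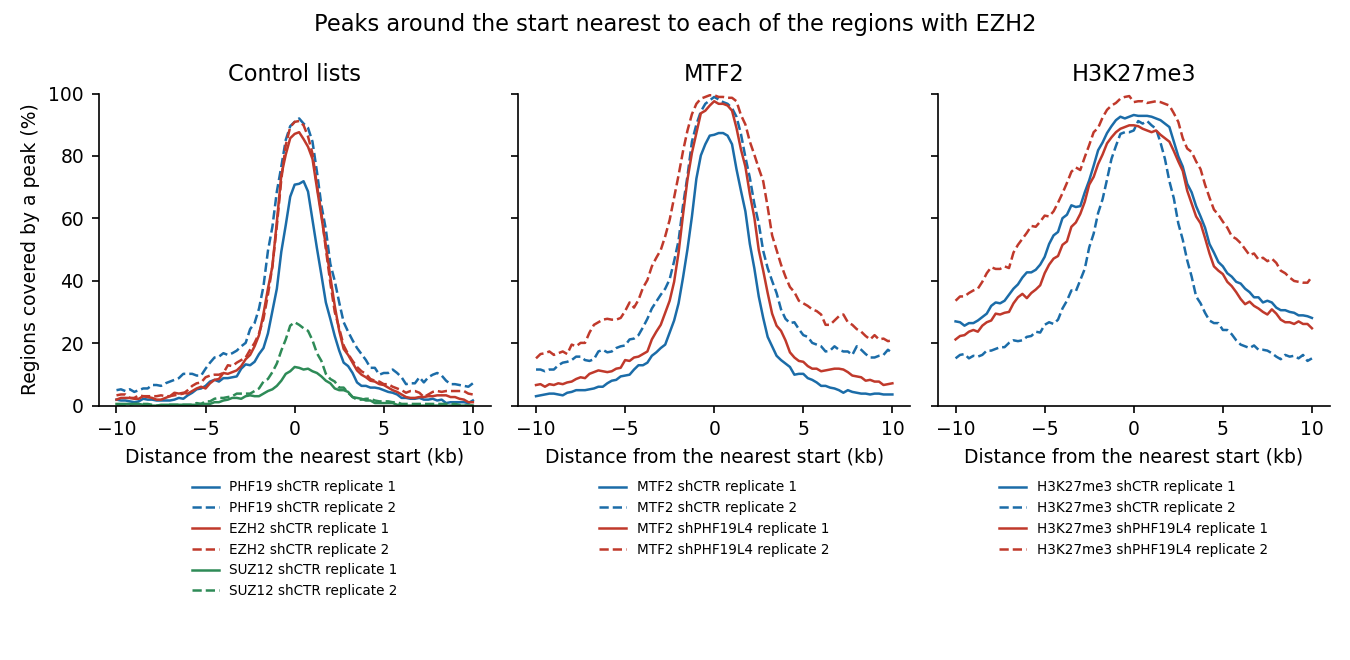
Percent of the 363 regions covered by a peak at each distance (kb) from the start nearest to the region, oriented so that positive is downstream. Solid lines are replicate 1 and dashed lines replicate 2. Coverage by PHF19, EZH2, SUZ12 and MTF2 peaks is highest near the start and, at 2500 bp from it, higher downstream than upstream, and H3K27me3 coverage at 5 kb differs widely between its lists.

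Around the nearest start, the EZH2 peaks reached less far than the H3K27me3 peaks. In shCTR the start itself was covered by an EZH2 peak at 87.1% and 90.9% of the regions in replicates 1 and 2, and a position 5000 bp downstream at 6.61% and 6.89%. H3K27me3 covered the start at 93.1% and 88.2% and the position 5000 bp downstream at 44.6% and 24.2%. MTF2 covered 86.8% and 98.9% at the start and 10.2% and 22.6% at 5000 bp downstream in shCTR, and 97.5% and 99.4%, then 14.0% and 32.8%, in shPHF19L#4. At 5000 bp downstream in shCTR, MTF2 thus lay above EZH2 in each replicate and below H3K27me3, by little in replicate 2. In that replicate the median peak at the regions was 4177 bp wide for H3K27me3 and 4602 bp for MTF2, so the mark was not the wider there.

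The authors' tables of regions that differ between shCTR and shPHF19L#4 list a mean log2 concentration per condition, without a value per replicate, so these means have no error. A table holds only regions that passed the authors' threshold. A listed EZH2 region overlapped 356 of the 363 regions, and its mean was higher in shPHF19L#4 at all 356, where 75.6% of all PHF19 regions had such a region. The median EZH2 concentration was 7.60 in shCTR and 8.69 in shPHF19L#4, and the difference had a median of 1.10, from 0.29 to 1.81. A listed MTF2 region overlapped 355 (73.3% of all PHF19 regions), also higher at all 355, with medians of 9.14 and 9.97 and a median difference of 0.83, from 0.35 to 1.30. For SUZ12 there were 243 (31.5% of all PHF19 regions), all higher, with medians of 6.43 and 7.32 and a median difference of 0.90. Of these 243, 129 had no SUZ12 peak in either shCTR list. Since 2407 of the 2408 listed EZH2 regions, all 508 SUZ12 regions and 2539 of the 2546 MTF2 regions were higher in shPHF19L#4, the direction was that of nearly the whole tables. The median differences of promoter regions without EZH2, 1.12 for EZH2 and 0.84 for MTF2, were close to those of the chosen regions. That for SUZ12, 1.10 over 82 regions, was larger. EZH2 peaks of shCTR separated these classes, and the same libraries enter the EZH2 difference, so its values are a description only. For H3K27me3, whose table lists 1049 regions, 1048 of them higher in shPHF19L#4, a single chosen region was listed against 2.65% of all PHF19 regions, that of CBX2 (6.16 in shCTR and 7.29 in shPHF19L#4).

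**Figure D4:**
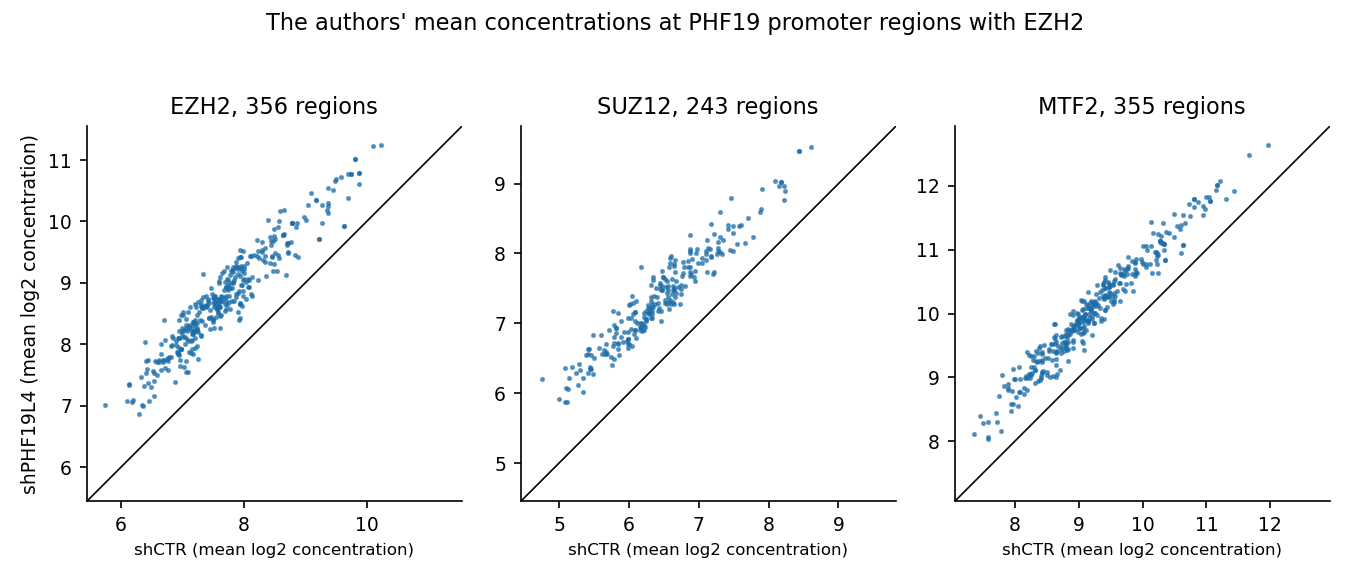
The authors' mean log2 concentration in shCTR (horizontal) and shPHF19L#4 (vertical) of EZH2, SUZ12 and MTF2, 1 point for each of the 363 regions that has a listed region. The line marks equal values, and every point lies above it.

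Regions with high PHF19 concentrations, which are mostly wide regions, tended to have smaller differences, and the part of width in this was not tested. Of the 10 regions with the highest PHF19 concentrations, 7 had an EZH2 difference below the lower quartile of the group (0.92) and 8 had an MTF2 difference below its lower quartile (0.70). The smallest EZH2 difference was that of IGF2BP3 (9.63 in shCTR and 9.92 in shPHF19L#4, a difference of 0.29, which both of its regions share because they overlap the same listed region). ATF3 came next, with 8.68 and 9.13. The largest EZH2 differences, named after their values were seen, were at GRM4, which encodes a glutamate receptor (7.34 and 9.15), ISM1 (6.70 and 8.40), MAPK4 (6.39 and 8.04), PDGFA (8.39 and 10.03) and NOTUM (7.93 and 9.54). Their PHF19 concentrations of 6.99, 6.87, 6.43, 7.89 and 7.30 lay on both sides of the median of the group. Across the regions, which are not replicates and come from the same libraries, the rho of the PHF19 concentration with the difference was -0.26 for EZH2 (n = 356) and -0.33 for MTF2 (n = 355). The 91 regions with the highest PHF19 concentrations had a median EZH2 difference of 0.93 and the next 91 had 1.15. The 91 after them had 1.17 and the 90 lowest 1.13, so only the highest group was lower. Each median is over the 89 regions of the group that are listed. For MTF2 the highest and lowest groups had 0.72 and 0.88, each over 88 listed regions. With the shCTR EZH2 concentration itself the EZH2 difference had a rho of -0.03.

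The 7 regions without a listed EZH2 region included those of HEY1, OSBPL1A, ST8SIA4, S1PR1, SLC1A3 and PDE4D, and 8 had no listed MTF2 region, among them HEY1, CBX2, SLC1A3, PDE4D and the second region of IGF2BP3. HEY1, an effector of Notch, had EZH2 scores of 310 and 195 in shCTR and MTF2 peaks in all 4 lists, 4267 and 4057 bp wide in shCTR and 4314 and 3904 bp in shPHF19L#4. These widths overlapped between the conditions. HEY2, a paralogue of HEY1, was listed for both proteins (EZH2 6.62 and 7.71, MTF2 8.66 and 9.42).

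Of 9 genes taken from those that the study names as PHF19 sites, which are not all of them, 8 had a chosen region. EGLN3, which encodes an oxygen-sensing prolyl hydroxylase, had a promoter region without EZH2. Of other targets that the study names, BMP4, WNT7A and HEY1 had a chosen region and SOX9 a promoter region without EZH2. LOX, CXCR4, ADM, NDRG2 and HMGA2, also named there, were not among the 9. The count of 8 is therefore not a share of the study's sites. The study chose the 9 genes on the same samples, so their count is not independent evidence. DUSP4, a phosphatase that inactivates MAP kinases, had high EZH2 scores (1133 and 1768) and low differences (0.53 for EZH2 and 0.48 for MTF2). ATF3 resembled it, with EZH2 scores of 525 and 1149 and differences of 0.45 and 0.39. MLLT6, which encodes a PHD finger protein, had low EZH2 scores and a low EZH2 difference (0.74), with scores of 84.3 and 99.3, H3K27me3 scores of 95.4 and 314 in shCTR and 72.1 and 1184 in shPHF19L#4, and no MTF2 peak in shCTR replicate 1. EFNA3, an ephrin ligand, had EZH2 scores of 291 and 2051 and an EZH2 difference of 1.36. IGFBP3, which binds insulin-like growth factors, and CYP24A1, which degrades active vitamin D, had EZH2 scores of 199 and 243 and of 53.4 and 391. The EZH2 difference was 1.02 at IGFBP3 and 0.92 at CYP24A1. The 8 sites therefore spanned most of the range of EZH2 scores of the group.

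The 363 regions held a median of 59.1 CG dinucleotides per kb, against 57.3 in promoter regions without EZH2, 31.6 in regions away from promoters and 51.4 in all PHF19 regions. Within 1000 bp on either side of the start, the 344 genes nearest to a chosen region had a median of 71.5 per kb, the 437 genes nearest to a promoter region without EZH2 64.5 and all 19794 genes 48.0. Of the 344 promoters, 193 (56.1%) had more than 67.0 per kb, the upper quartile of all promoters, and 10 (2.91%) lay at or below the lower quartile, 25.5 per kb. For promoters without EZH2 the shares were 46.0% and 5.26%. The CpG densities ran from 13.0 per kb at VGLL2, which encodes a cofactor of TEAD proteins in muscle, to 124 per kb. At ATF3 it was 34.7 and at IGF2BP3 50.4, below the median of the group, and at FGFR3 89.8. High CpG density was thus common among the regions and not a requirement, and promoter regions with and without EZH2 overlapped widely.

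**Figure D5:**
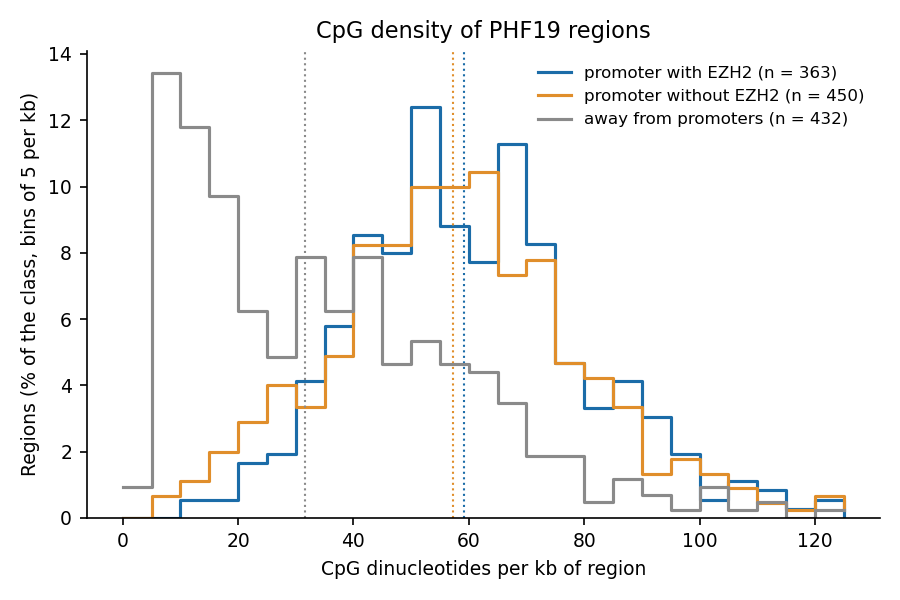
Distribution of CpG dinucleotides per kb over PHF19 promoter regions with EZH2 (blue), promoter regions without EZH2 (orange) and regions away from promoters (grey), in bins of 5 per kb, with dotted lines at the medians. The blue and orange outlines lie over each other, and the grey outline peaks below 20 per kb.

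The CpG density of a region went with the size of its difference between the conditions. Over the 356 regions with a listed EZH2 region, CpG density and the EZH2 difference had a rho of 0.54, and over the 355 with a listed MTF2 region the rho with the MTF2 difference was 0.51. In promoter regions without EZH2 the values were 0.57 (n = 344) and 0.46 (n = 322), so this was not confined to the chosen regions. In the 91 regions with the highest CpG density, a median of 84.5 per kb, the median EZH2 difference was 1.26, and in the 90 with the lowest, a median of 38.9 per kb, it was 0.93 over the 84 that are listed. The concentrations of EZH2 and MTF2 in shCTR had a rho of 0.02 and 0.11 with CpG density, whereas the EZH2 scores of replicate 2 had medians of 451 and 196 in the regions with the highest and lowest CpG density, and those of replicate 1 138 and 109. Whether CpG density goes with the level of EZH2 thus depended on the measure. Regions share the libraries, and CpG density goes with base composition, whose part in the relation was not tested. The 2 regions of LDLRAD4, which encodes an inhibitor of TGF-beta signalling, were singled out after their values were seen: the EZH2 difference was 0.48 at the region with 22.2 per kb and 1.37 at that with 71.0 per kb.

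Short motifs were counted on both strands in the window from 250 bases before to 50 after the start of the 344 nearest genes. GCGGG was found in 89.5% of these windows, 84.9% of those without EZH2 and 73.5% of all promoters, and CGCG in 85.8%, 84.0% and 67.0%. The Sp-type motif GGGCGG, which contains GCGG and thus overlaps GCGGG in some matches, was found in 72.7%, 67.7% and 61.3%. The ETS-type motif CCGGAAG was found in 4.07%, 2.97% and 14.0%, CCAAT in 25.3%, 25.9% and 35.9%, and TATAAA in 6.98%, 8.01% and 9.74%. CpG-rich motifs were thus commoner and CCGGAAG and CCAAT rarer than in all promoters, with little difference between promoters with and without EZH2. A match describes the letters and says nothing of what binds there.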

How the data were processed

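ChIP-seq peak lists and tables of differential binding deposited by the authors were used, and samples were grouped by their labels. The authors mapped reads with Bowtie to hg19 (GRCh37), with the fly genome dm3 where a spike-in was present, and kept uniquely mapped reads. The authors called peaks with MACS, replicate by replicate and against a control library, and scores are those that MACS gave, as deposited. In replicate 1, PHF19 peaks carry tag counts instead and MTF2 peaks carry no score. For concentrations, the authors' DiffBind means on a log2 scale were taken, 1 per condition. The methods name no spike-in scaling for them. The tables also hold the authors' log2 folds, P values and FDR of their own comparisons, which were not used.

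Overlaps of at least 1 bp were counted with Python 3.11.15 and numpy 2.4.6 against transcript starts of GENCODE release 44 mapped to GRCh37, and sequence was read with pysam 0.24.0. Overlapping peaks of both replicates were merged, and regions with a peak from each were kept. A region takes the name of the gene whose start is nearest to its middle, its score is the highest among overlapping peaks, and listed means are those of the listed region with the longest overlap. Interval counts were tested on simulated data. Numbers of regions per sample were compared by exact permutation over samples, and quantiles of the binomial distribution came from scipy 1.17.1. Figures were drawn with matplotlib 3.10.9.

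Genes given with values were mainly named by a rule. Of each gene list the up to 4 with the highest PHF19 concentration were named, and the 10 regions with the highest PHF19 concentration. Named too were 9 of the genes that the study gives as sites, and the regions next to each threshold. Among regions with SUZ12 in both replicates, those with the 5 highest SUZ12 scores of replicate 1 were named. Other genes are listed as members of a gene list, or were chosen after their values were seen: those that gained or lost a peak, had the largest or smallest differences, or were absent from a table. No region lacked H3K27me3 or MTF2 in all 4 lists, and none was listed as lower in shPHF19L#4. The regions and gene lists were chosen with earlier results of these data known. Other settings tried were at least 50% of a region covered, peaks of either replicate, each replicate left out, a MACS score of at least 100, a promoter window of 1000 bp, PHF19 peaks in both replicates and autosomes only. RNA-seq, input and IgG libraries, and PHF19, EZH2 and SUZ12 peaks of shPHF19L#4 were not analysed here. A few of the regions are not reported here by name or sequence.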

Additional observations from a re-analysis of the deposited data

How the results depend on the processing

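Of the 92 values recomputed under other settings, 81 kept their direction or stayed within the limits set for them, which are 1.5 times for counts of regions, 1 SD of 2 replicates for shares (wide for SUZ12, so that no lower share would pass them) and, for medians, 95% intervals over regions, which say nothing of the spread between samples. Counting peaks of either replicate moved the number of regions from 363 to 608, and the shares with SUZ12, H3K27me3 and MTF2 in shCTR to 26.3%, 99.5% and 100%. A MACS score of at least 100, which leaves the MTF2 lists of replicate 1 as they are, left 213 regions. With each replicate left out, the number of regions ran from 418 to 551, the SUZ12 share from 14.6% to 25.95%, the H3K27me3 share from 96.7% to 99.3% and the MTF2 share from 89.5% to 100%. The difference in the number of regions with MTF2 was 40 with either replicate and 2.5 with the score limit. With each replicate left out it ran from 0 to 33, and that with H3K27me3 from -18 to 4, so its direction turned without replicate 1. The cause of these shifts was not tested. With the replicate block, a paired sign-flip over the 2 pairs that cannot go below an exact p of 0.5, the differences were 12 for MTF2 and -8 for H3K27me3, with p = 1 for both. Transcripts of the basic annotation and regions that contain a start, settings chosen after seeing the data, gave 356 and 324 regions. Over all settings the median CpG density ran from 57.7 to 60.1 per kb, the median EZH2 difference from 1.08 to 1.12 and the median MTF2 difference from 0.82 to 0.85. Numbers of peaks differ widely between replicates (2516 and 32254 for MTF2 in shCTR), read depth is unknown, and no value per replicate was used for the concentrations, so small differences between conditions cannot be resolved here.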
